A study of Mus musculus with 6 samples.

Results

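The region examined is the stretch of mouse chromosome 11 around Myo1c, the gene that encodes nuclear myosin 1. It runs from position 65650504 to 85673910 on GRCm38, which is 10 Mb to each side of the Myo1c gene body. Members are the genes that overlap it and hold at least 60 raw counts summed over the 6 libraries, with 16 genes left out by name, Myo1c among them. This gave 293 members of the 658 genes that the files list in the region, and of 46603 genes listed in all. A further 349 genes of the region lay under 60 counts, 213 of them at 0, among which were all 43 olfactory receptor genes of the region. Of the members, 160 lie on the lower-coordinate side of Myo1c and 133 on the higher-coordinate side, and 265 are protein-coding. The count threshold does not use the genotypes, though a gene can reach it mainly through the genotype in which it is high. The region, the names left out and the examples Ccdc92b and Gm26836 were picked with the difference between the genotypes known. The values of that pair are therefore a description and support nothing else. Just inside the threshold were Asgr2 and Omg with 62 counts each and Mir144 with 64 counts, and just outside it were Gm21988 with 58 counts and Trarg1 with 56 counts.

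Myo1c is a class I myosin, an actin-based motor with a single heavy chain, and nuclear myosin 1 is its nuclear form, which carries a short extension at the amino terminus. Nuclear myosin 1 works with nuclear actin and chromatin remodellers in transcription by RNA polymerases I and II. Genes that lie close to a targeted locus are inherited together with it, so they are commonly inspected in knockout strains by their distance from it. The region is gene-dense and holds, besides housekeeping genes, the mouse Schlafen and CC chemokine clusters and the skeletal muscle myosin heavy chain cluster.

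The libraries come from 6 C57/Bl6 mice aged 8 months, 3 NM1 KO and 3 wild type (NM1 WT), with no treatment named. Each library holds the unsorted marrow of the femurs and tibiae of 1 mouse. The promoter or construct used for targeting, the origin of the DNA that flanks the targeted locus, littermate status and sex are not given in the sources that were used. An effect of the lost protein and an effect of alleles or targeting sequence carried along at the locus cannot be told apart in this design.

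Depth ran from 15145052 to 22618802 counts per library, with all NM1 KO libraries above all NM1 WT libraries. Levels are given as CPM, read counts relative to library size with a correction for library composition, and 1 CPM stands for 14.7 to 22.98 counts. Y-linked genes had counts in NM1 KO 1, NM1 KO 2 and NM1 WT 2 and 0 counts in the other libraries, so each genotype holds both states. Markers of marrow cell types were present, and several lists differed between the genotypes. The 8 markers of platelets and megakaryocytes summed to 1629 to 3668 CPM in NM1 KO and 796 to 1051 CPM in NM1 WT, and the 8 of eosinophils and basophils to 901 to 1364 and 2463 to 3869 CPM. In skeletal muscle the sums were 112 to 151 and 40.9 to 45.6 CPM, with Tnnc2 at 0, and in stroma and bone 1248 to 2077 and 569.9 to 684 CPM. The 8 neutrophil markers summed to 36537 to 46779 and 46592 to 63174 CPM.

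Myo1c had 73.8, 59.1 and 59.7 CPM in NM1 KO 1 to 3 and 89.8, 115 and 102 CPM in NM1 WT 1 to 3. The genotypes did not overlap, NM1 KO being the lower, and the log2 fold change was -0.67 (SE 0.14, edgeR adjusted p = 0.0516). The count sums all forms of the gene, so it does not show the nuclear form by itself.

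Promoter sequence is shown for the members nearest to Myo1c whose genotypes differed at an unadjusted p under 0.05, so that the letters stand beside the values given further on. Of 11 such members within 1 Mb, 10 had a promoter entry in RefSeq (GRCm38.p6), and for 3 of these the 250 bases before the start held no exon of any gene. They are 4931413K12Rik, a non-coding transcript (chr11:75594801-75595050, minus strand), Crk, an adaptor protein that links tyrosine kinases to small GTPases (chr11:75679009-75679258, plus strand), and Rflnb, a filamin-binding protein (chr11:76027783-76028032, minus strand). Capitals mark matches on either strand to any of 5 motifs. The TATA box was searched as TATAAA. The CCAAT box was searched by the letters of its name. The GC box was searched as GGGCGG. The E-box was searched as CACGTG. The cyclic AMP response element, CRE, was searched as TGACGTCA.
4931413K12Rik: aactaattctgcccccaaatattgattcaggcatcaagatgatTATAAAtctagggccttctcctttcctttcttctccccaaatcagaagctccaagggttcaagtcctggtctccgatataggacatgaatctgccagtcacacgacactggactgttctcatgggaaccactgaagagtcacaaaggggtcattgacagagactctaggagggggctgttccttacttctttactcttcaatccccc
Crk: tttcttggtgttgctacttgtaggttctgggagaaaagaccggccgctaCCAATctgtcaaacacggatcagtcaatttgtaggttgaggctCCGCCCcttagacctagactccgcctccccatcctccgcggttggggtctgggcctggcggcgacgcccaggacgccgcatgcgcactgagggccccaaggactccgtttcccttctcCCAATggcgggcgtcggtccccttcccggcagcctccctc
Rflnb: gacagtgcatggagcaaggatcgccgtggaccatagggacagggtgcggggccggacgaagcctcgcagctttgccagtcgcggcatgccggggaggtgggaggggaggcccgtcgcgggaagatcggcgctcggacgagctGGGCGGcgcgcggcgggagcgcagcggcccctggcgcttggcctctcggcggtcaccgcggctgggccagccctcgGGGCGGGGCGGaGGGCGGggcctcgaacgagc

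The 4931413K12Rik window held 1 TATA box and 2 CpG dinucleotides at 46.4% GC. The Crk window held 2 CCAAT boxes and 1 GC box, with 18 CpG dinucleotides at 62.4% GC. The Rflnb window held 4 GC boxes, of which a pair share letters, and 34 CpG dinucleotides at 76% GC. Over all 32851 promoter entries, taken at the same length, the median was 52.4% GC and 6 CpG dinucleotides. A TATA box occurred in 12.4% of them, a CCAAT box in 33.8%, a GC box in 32.7%, an E-box in 6.02% and a CRE in 1.55%. These matches describe the letters and show no binding.

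Of the 293 members, 292 were tested with edgeR's quasi-likelihood test, with p adjusted by Benjamini-Hochberg over all 15069 tested genes. Asgr2 had too few counts to be tested, and had 4, 8 and 10 raw counts in NM1 KO and 20, 8 and 12 in NM1 WT. At an adjusted p under 0.05, 0 members were higher and 2 were lower in NM1 KO, which is 0.685% of the members against 0.776% of all tested genes (0.591% higher and 0.186% lower). The pair is Ccdc92b and Gm26836, the examples picked for their difference, and of the other 290 members 0 passed. At an unadjusted p under 0.05 there were 47 members, 19 higher and 28 lower, which is 16.1% against 16.8% of all tested genes (8.44% higher and 8.32% lower). With DESeq2, 7 members were higher and 11 lower at an adjusted p under 0.05, which is 6.29% of the 286 members with an adjusted p against 5.49% of all such genes (2.76% higher and 2.72% lower). With limma-voom 0 were higher and 1 was lower, which is 0.342% against 0.246% of all tested genes (0.153% higher and 0.0929% lower). The NM1 KO and NM1 WT values did not overlap in 63 members, 25 higher and 38 lower, which is 21.6% against 20.5% of all tested genes. The median absolute log2 fold change was 0.23 among members and 0.24 among all tested genes. The share at an unadjusted p under 0.05, the share without overlap and the median were thus near those of all tested genes. On chromosome 11 outside the region, 9 of 928 tested genes passed, and 16.5% had an unadjusted p under 0.05.

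Large differences were few. A fold change of at least 2 was seen in 15 members, 8 higher and 7 lower, which is 5.14% against 8.61% of all tested genes. In 7 of these 15 the genotypes did not overlap: Ccdc92b, Gm26836, Rpl23a-ps2 and Tnfsf13os were lower, and Myh4, Smtnl2 and Tlcd2 were higher. Rpl23a-ps2, with 8, 2 and 8 raw counts in NM1 KO and 16, 16 and 20 in NM1 WT, reached 60 counts mainly through NM1 WT. So did Gm26836, which had 10, 20 and 6 raw counts in NM1 KO. The share without overlap among all tested genes with such a fold change was not computed, so whether 7 of 15 is unusual was not tested.

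Ccdc92b, a protein-coding gene named for a predicted coiled coil (ENSMUSG00000069814), lies at 74619605 to 74641516 on the plus strand of chromosome 11, 1.01 Mb from Myo1c. It had 2.78, 3.22 and 2.67 CPM in NM1 KO 1 to 3 and 25.5, 38.4 and 26.3 CPM in NM1 WT 1 to 3. All 3 NM1 KO libraries were low and close to each other, and the genotypes did not overlap. The gene fell 10.4-fold in NM1 KO, from 30.04 ± 7.22 to 2.89 ± 0.291 CPM (SD, n = 3 each), with a log2 fold change of -3.37 (SE 0.23, edgeR adjusted p = 5.85e-05). In raw counts it had 64, 70 and 57 in NM1 KO and 375, 662 and 401 in NM1 WT. Its exons overlap no other annotated gene. It passed under all of the 19 other settings run for it, with log2 fold changes from -3.49 to -3.15.

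The genes on both sides of Ccdc92b had small differences that did not pass. Rap1gap2, which switches off the small GTPase Rap1 and is known from platelets, had 48.6 ± 9.71 CPM in NM1 KO against 60.4 ± 10.4 CPM in NM1 WT (adjusted p = 0.402). Cluh, which binds messenger RNAs of mitochondrial proteins, had 44.1 ± 3.72 and 40.5 ± 1.07 CPM (adjusted p = 0.699). In both neighbours the genotypes overlapped. In bulk marrow, fewer cells of a type and less RNA per cell cannot be told apart, and which cells express Ccdc92b was not tested.

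Gm26836, a long intergenic non-coding RNA in the annotation (ENSMUSG00000097051), lies at 75745072 to 75761195 on the minus strand, 71.2 kb from Myo1c and inside the body of Ywhae, which is read from the plus strand. It had 0.435, 0.921 and 0.281 CPM in NM1 KO 1 to 3 and 9.37, 3.48 and 7.08 CPM in NM1 WT 1 to 3. The lowest NM1 WT value lay above the highest NM1 KO value. The gene fell 12.0-fold in NM1 KO, from 6.64 ± 2.97 to 0.546 ± 0.334 CPM (SD, n = 3 each), with a log2 fold change of -3.59 (SE 0.55, edgeR adjusted p = 0.0204). These levels rest on 10, 20 and 6 raw counts in NM1 KO and 138, 60 and 108 in NM1 WT. Both mates of a pair appear to have been counted, so the fragments behind these counts are fewer. The call was lost with limma-voom (adjusted p = 0.069), without NM1 WT 1 (edgeR adjusted p = 0.1) and without NM1 WT 3 (edgeR adjusted p = 0.0556), while the log2 fold change stayed between -4.18 and -3.26 over the 19 settings.

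Ywhae, the 14-3-3 epsilon adaptor that binds phosphorylated proteins, had 411.6 ± 27.0 CPM in NM1 KO against 391 ± 43.4 CPM in NM1 WT, with a log2 fold change of 0.08 (adjusted p = 0.821). Gm26836 lies within its body, and no exons of the pair overlap. The counting's strand setting is not given in the labels or notes, so reads from Ywhae introns and reads of Gm26836 cannot be told apart.

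**Figure D1:**
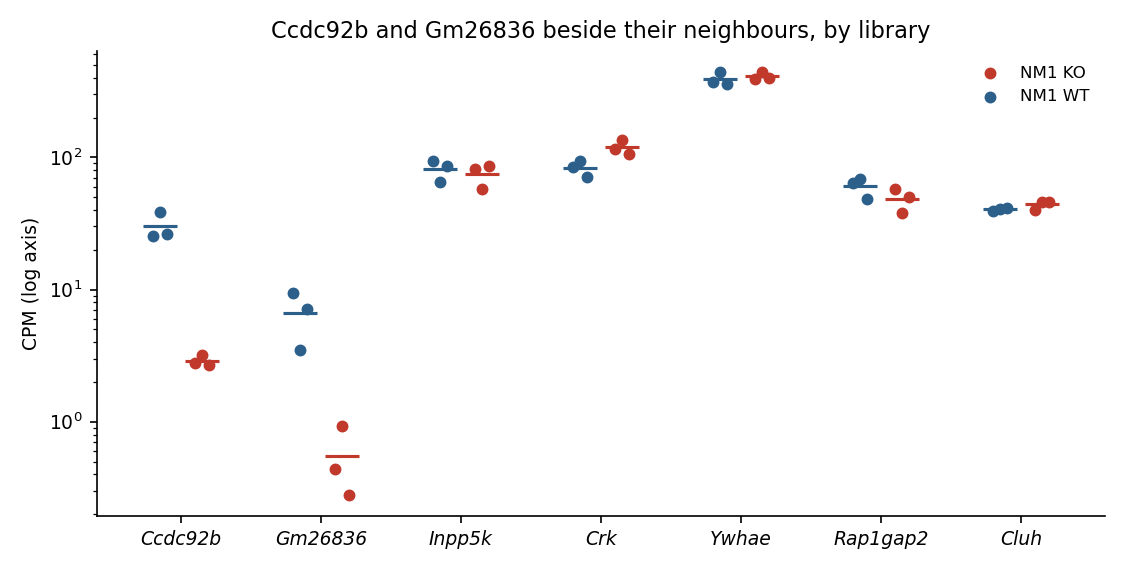
CPM on a log axis for Ccdc92b, Gm26836 and 5 genes beside them or beside Myo1c, with 1 point per library and a bar at the mean of 3. Ccdc92b lay at 2.67 to 3.22 CPM in NM1 KO and at 25.5 to 38.4 CPM in NM1 WT, Gm26836 was also apart, and the genotypes overlapped in Inpp5k, Ywhae, Rap1gap2 and Cluh.

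Nearest to Myo1c, the 2 flanking genes gave different values. Inpp5k, a phosphatase of inositol phospholipids that lies 1.63 kb away on the lower-coordinate side, had 81.7, 58.1 and 85.8 CPM in NM1 KO and 93.5, 64.8 and 86.0 CPM in NM1 WT. These overlapped, with a log2 fold change of -0.11 (adjusted p = 0.799). Crk lies 5.35 kb away on the higher-coordinate side and had 115, 136 and 105 CPM in NM1 KO and 83.7, 93.5 and 71.4 CPM in NM1 WT. All NM1 KO values of Crk were above all NM1 WT values, with a log2 fold change of 0.52 (SE 0.14), but the test over all genes was not passed (unadjusted p = 0.0039, adjusted p = 0.119). Crk passed in 4 of the 19 other settings, DESeq2 and the fit with the replicate number as a block among them. Its promoter is the CpG-rich window with a pair of CCAAT boxes printed above.

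On the lower-coordinate side none of the next genes named here passed the threshold. Pitpna, which carries phosphatidylinositol between membranes, had 271 ± 21.3 and 309 ± 37.8 CPM in NM1 KO and NM1 WT. Slc43a2, an amino acid transporter, had 56.4 ± 2.47 and 53.2 ± 3.23 CPM, and Prpf8, a core spliceosome protein, 128 ± 33.6 and 141 ± 10.2 CPM. Adjusted p for these was 0.51, 0.782 and 0.731. Scarf1, a scavenger receptor, had 13.0 ± 2.03 and 10.2 ± 1.92 CPM without overlap (adjusted p = 0.466), and Rilp, which links lysosomes to motor proteins, had 3.01 ± 0.279 and 2.26 ± 1.83 CPM with overlap. Gm12338, a processed pseudogene inside Pitpna, was under 2 CPM in every library.

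The transcript 4931413K12Rik, whose gene lies in the body of Pitpna on the opposite strand, had a larger difference than the genes just named. It had 4.44, 1.57 and 1.92 CPM in NM1 KO 1 to 3 and 7.47, 4.06 and 10.2 CPM in NM1 WT 1 to 3. NM1 KO 1 was above NM1 WT 2, so the genotypes overlapped, and the log2 fold change was -1.45 (SE 0.47, unadjusted p = 0.00944, adjusted p = 0.156). Its promoter is the window with a TATA box printed above. Tlcd2, a gene for a membrane protein with a TLC domain 179.6 kb away, had 6.005, 6.91 and 7.503 CPM in NM1 KO and 2.99, 1.74 and 3.93 CPM in NM1 WT. Its genotypes did not overlap (log2 fold change 1.24, SE 0.36, adjusted p = 0.13), but its exons overlap those of Mir22hg, the host gene of miR-22, which had 18.9 ± 3.41 and 20.5 ± 5.97 CPM. Hic1, a zinc finger repressor, had 2.87, 6.22 and 0.563 CPM in NM1 KO and 0.814, 1.04 and 0.131 CPM in NM1 WT. NM1 KO 3 lay among the NM1 WT values, and the log2 fold change of 2.26 had an SE of 0.84 (adjusted p = 0.208). The highest values of Hic1 were in NM1 KO 1, NM1 KO 2 and NM1 WT 2, the libraries with Y-linked counts.

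Farther along the higher-coordinate side lie several genes whose genotypes did not overlap. Rflnb had 181, 129.9 and 177 CPM in NM1 KO and 283, 237 and 206 CPM in NM1 WT, and the log2 fold change was -0.57 (SE 0.16; edgeR adjusted p = 0.121). Vps53, a subunit of a complex that tethers vesicles at the Golgi, had 26.9 ± 3.26 CPM in NM1 KO against 37.3 ± 1.51 CPM in NM1 WT (log2 fold change -0.47, adjusted p = 0.15). Abr had 58.8 ± 2.93 and 81.6 ± 12.5 CPM (log2 fold change -0.47, adjusted p = 0.128). Glod4, a protein with glyoxalase domains, had 26.4 ± 3.82 and 34.3 ± 2.45 CPM (log2 fold change -0.38, adjusted p = 0.253). In these 4 genes NM1 KO was the lower genotype.

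Mrm3, which methylates ribosomal RNA in mitochondria, went the other way, with 8.14, 10.4 and 10.4 CPM in NM1 KO and 4.34, 5.16 and 5.51 CPM in NM1 WT. Its log2 fold change was 0.95 (SE 0.26, adjusted p = 0.118), and no value of one genotype lay within the range of the other. Mrm3 and Glod4 are read in opposite directions from starts that overlap, and Glod4 shares exon sequence with Mrm3, Vps53, Fam57a and Gemin4, so how reads were divided among them is uncertain. Between and beyond these genes, Rph3al, an exocytosis protein, had 4.41 ± 0.662 and 5.07 ± 1.56 CPM, Fam57a 1.69 ± 0.428 and 2.70 ± 0.638 CPM, Nxn, a thioredoxin-like protein, 32.4 ± 4.54 and 38.6 ± 2.02 CPM, and Timm22, part of the inner mitochondrial import machinery, 24.0 ± 1.58 and 23.8 ± 0.613 CPM. In these 4 genes the genotypes overlapped, with adjusted p from 0.422 to 0.984.

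**Figure D2:**
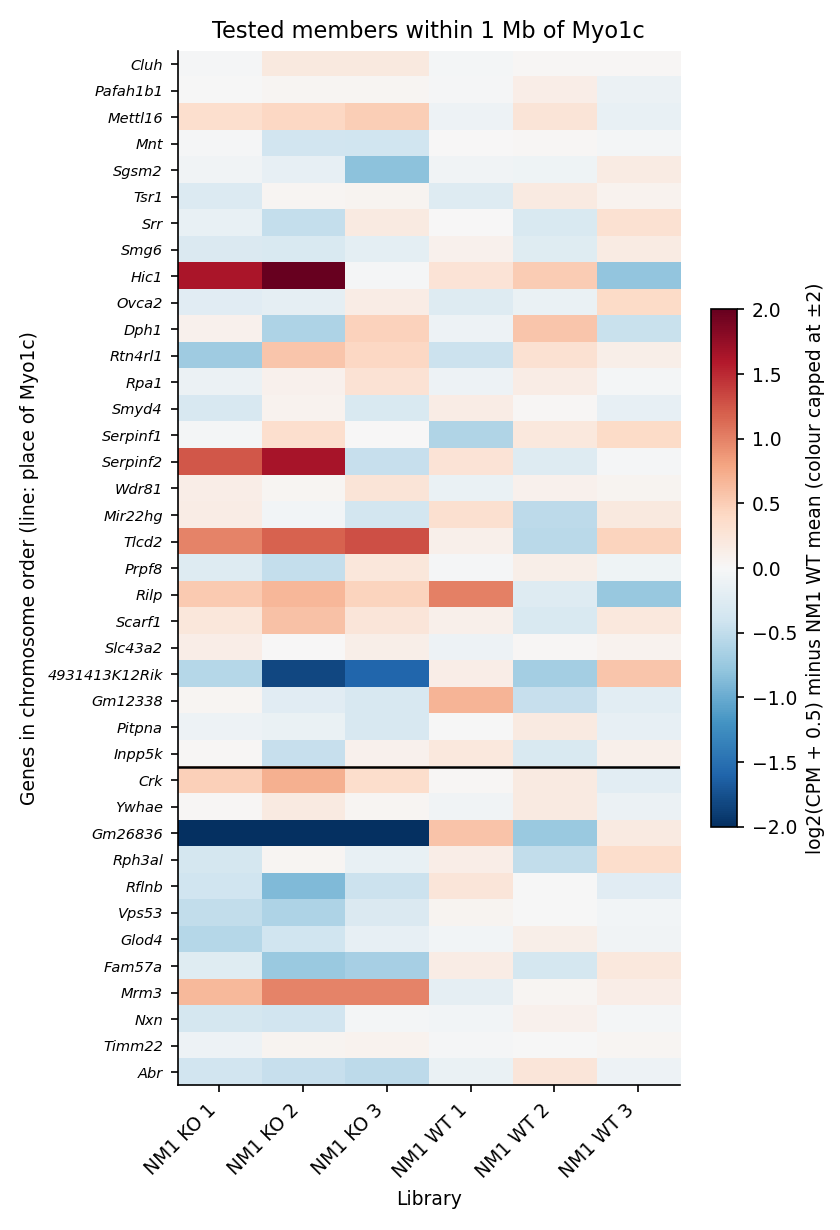
Each row is 1 of the 39 tested members within 1 Mb of Myo1c in chromosome order, each column a library, and the colour is log2(CPM + 0.5) minus the NM1 WT mean of that gene, with the line at the place of Myo1c. Gm26836, Rflnb, Vps53, Glod4 and Abr were lower in all 3 NM1 KO libraries than in any NM1 WT library, and Crk, Mrm3, Tlcd2, Mettl16 and Scarf1 were higher.

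Grouped by distance, the members within 1 Mb on the higher-coordinate side had the largest share at an unadjusted p under 0.05. There they were 7 of 12 members (58.3%, against 16.8% of all tested genes), Crk, Gm26836, Rflnb, Vps53, Glod4, Mrm3 and Abr, and 6 of 11 without Gm26836. On the lower-coordinate side within 1 Mb they were 4 of 27 (14.8%), namely Mettl16, Hic1, Tlcd2 and 4931413K12Rik. Mettl16, an RNA methyltransferase, had 33.6, 35.6 and 37.2 CPM in NM1 KO and 24.6, 31.6 and 23.7 CPM in NM1 WT. Of these 11, Gm26836 passed the test over all genes in the main edgeR fit. With DESeq2 it was 7 of the 11, namely Gm26836, Crk, Rflnb, Mrm3, Abr, Tlcd2 and 4931413K12Rik, and with limma-voom 0. The 11 were picked by their p in the same counts, so a high share among them follows from the choice. Within 1 Mb 39 members were tested, and DESeq2 called 5.49% of all genes with an adjusted p. The count of 7 stayed between 6 and 8 in the 19 refits, and it was 6 without NM1 KO 1, NM1 KO 2, NM1 WT 1 or NM1 WT 2 and 8 without NM1 KO 3. Following this group through the refits was decided after its values were seen. The refits use the same libraries, so they are no independent support for its share. The groups hold few genes, some of which share reads, and no test of the difference between the groups was made.

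From 1 to 2 Mb away, 1 of 3 members on the lower side and 4 of 12 on the higher side had an unadjusted p under 0.05. The former was Ccdc92b, one of the examples picked for their difference, and without it the count on the lower side was 0 of 2. The latter were Nsrp1, a splicing regulator of nuclear speckles (60.7 ± 7.30 and 79.3 ± 10.3 CPM in NM1 KO and NM1 WT), Gm12346, a transcribed pseudogene (18.95 ± 4.61 and 33.4 ± 8.94 CPM), Trp53i13 (10.2 ± 1.09 and 17.5 ± 5.05 CPM) and Taok1, a kinase of stress signalling (70.9 ± 4.71 and 56.2 ± 5.99 CPM). Their adjusted p lay between 0.126 and 0.223. Farther out the shares were 5 of 40 (12.5%) and 6 of 54 (11.1%) from 2 to 5 Mb, and 11 of 89 (12.4%) and 9 of 55 (16.4%) from 5 to 10 Mb, lower side first, which is at or below the 16.8% of all tested genes.

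Distance was compared with the size of the difference over the whole region. Across 292 genes, which are not independent replicates, Spearman's rank correlation between distance and the absolute log2 fold change was -0.02, and it was -0.01 on the lower side and -0.06 on the higher side. The median absolute log2 fold change within 1 Mb was 0.47 for the 12 genes of the higher side and 0.16 for the 27 of the lower side. From 1 to 2 Mb it was 0.59 for the 3 genes of the lower side (0.45 for the 2 without Ccdc92b) and 0.36 for the 12 of the higher side. It was 0.19 in both groups from 2 to 5 Mb, and 0.23 on the lower and 0.27 on the higher side from 5 to 10 Mb.

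**Figure D3:**
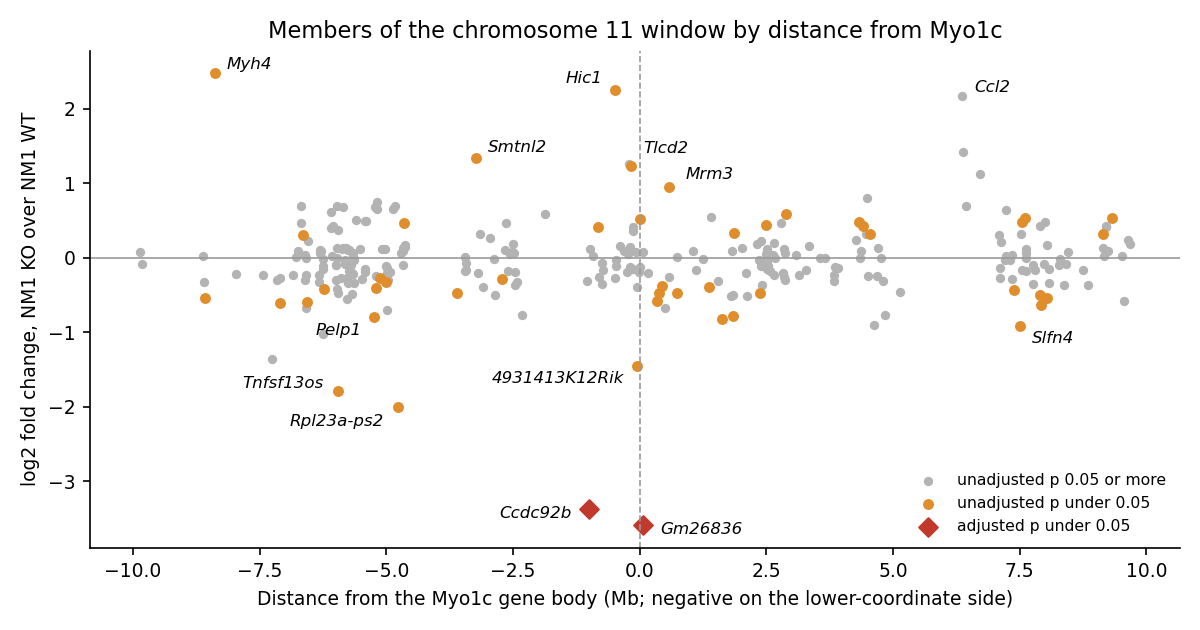
Log2 fold change of NM1 KO over NM1 WT (vertical axis) against distance from the Myo1c gene body in Mb (horizontal axis) for the 292 tested members, 1 point per gene. The 2 members past the threshold, Ccdc92b at -3.37 and Gm26836 at -3.59, lie far below all others, and the points at an unadjusted p under 0.05 spread over the whole width.

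**Figure D4:**
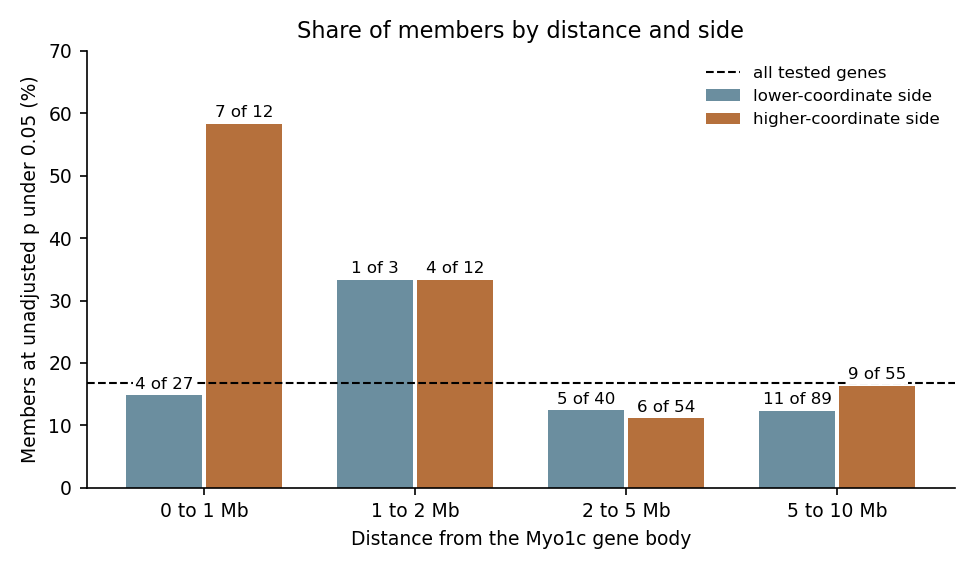
Percent of tested members at an unadjusted p under 0.05 in 4 distance groups on each side of Myo1c, with the dashed line at the 16.8% of all tested genes. The group within 1 Mb on the higher-coordinate side (7 of 12) and both groups from 1 to 2 Mb stand above the line, the lower-side one through Ccdc92b alone (1 of 3), and the groups beyond 2 Mb lie below it.

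Among members farther away, Slfn4 and Pelp1 came closest to the threshold. Slfn4, a Schlafen gene of myeloid cells, had 103, 73.3 and 79.2 CPM in NM1 KO and 208, 150.03 and 127 CPM in NM1 WT, and the log2 fold change was -0.92 (SE 0.19; edgeR adjusted p = 0.0513). Its genotypes did not overlap, and it passed in 10 of the 19 other settings. Pelp1, a coregulator of nuclear receptors that also serves in ribosome assembly, had 47.2, 38.9 and 47.8 CPM in NM1 KO and 82.9, 58.9 and 89.4 CPM in NM1 WT. It too was apart, and its log2 fold change was -0.79 (SE 0.17; edgeR adjusted p = 0.0516). It passed in 8 of the 19 settings. Vamp2, a SNARE protein of secretory vesicles, had 56.9, 52.8 and 47.5 CPM in NM1 KO and 87.3, 65.9 and 83.0 CPM in NM1 WT, again without overlap (log2 fold change -0.59, SE 0.14, adjusted p = 0.0848). These 3 genes lie 7.5, 5.24 and 6.56 Mb from Myo1c.

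None of the 13 gene groups examined had a member past the threshold over all genes in the main edgeR fit. At an unadjusted p under 0.05 the groups together held 29 of 142 distinct tested members (20.4%, against 16.8% of all tested genes). DESeq2 called 5.49% of all genes with an adjusted p. In these groups it called Slfn4, Slfn14, Pik3r6, Crk, Abr, Suz12, Pelp1, Smtnl2, Usp32 and Vamp2. With limma-voom 0 members of these groups passed. The 16.8% of all tested genes also stands beside the counts of each group below. Each group holds few genes, and no group was tested as a set.

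The 6 Schlafen genes still in the region, a family of growth regulators of immune cells, had a median log2 fold change of 0.01. At an unadjusted p under 0.05, 1 was higher and 2 were lower (all tested genes: 8.44% higher and 8.32% lower). Slfn2, which keeps lymphocytes and monocytes quiescent, had 280.4 ± 44.3 and 377 ± 71.5 CPM (log2 fold change -0.43, adjusted p = 0.217), with overlap. Slfn14, a ribosome-associated nuclease known from platelets and red cells, had 83.5, 94.2 and 103 CPM in NM1 KO and 58.0, 80.8 and 54.0 CPM in NM1 WT. It was higher in NM1 KO without overlap (log2 fold change 0.54, SE 0.16, adjusted p = 0.138), the opposite side from Slfn4. Slfn3, Slfn9 and Slfn10-ps were at 1.86 to 3.92 CPM on average in either genotype, with log2 fold changes of 0.32, -0.02 and 0.04. The Schlafen genes are close copies of each other, so shared reads make their values uncertain.

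The median log2 fold change of the 7 CC chemokine members, ligands that attract leukocytes, was 0.48. Of the 7, 2 were lower and 0 higher at an unadjusted p under 0.05 (all tested genes: 8.32% lower and 8.44% higher). The 2 were the most abundant members, both made by myeloid cells. Ccl6 had 337, 204 and 232 CPM in NM1 KO and 548, 279.6 and 370.04 CPM in NM1 WT (log2 fold change -0.63, adjusted p = 0.211), and Ccl9 had 126, 92.9 and 68.1 CPM and 124, 142 and 139 CPM (log2 fold change -0.50, adjusted p = 0.214). In both, NM1 KO 1 reached into the NM1 WT range. The monocyte attractant Ccl2 had 17.4, 33.2 and 0.656 CPM in NM1 KO and 1.02, 9.50 and 0.656 CPM in NM1 WT, so its log2 fold change of 2.18 (SE 1.05, adjusted p = 0.326) rests on NM1 KO 1 and NM1 KO 2. Its highest values were in NM1 KO 1, NM1 KO 2 and NM1 WT 2, which are the libraries with Y-linked counts. The Y-linked state is uneven between the genotypes. Ccl7, the neighbour of Ccl2, was high and low in the same NM1 KO libraries, with 1.04, 2.58 and 0.0938 CPM. It had 0.136 to 0.695 CPM in NM1 WT, where NM1 WT 2 was again the highest. Ccl3, Ccl4 and Ccl8 had log2 fold changes of -0.07, 0.48 and 0.70, with adjusted p of at least 0.706. Ccl8 had 0.87, 2.76 and 6.10 CPM in NM1 KO and 0.271, 0.232 and 5.51 CPM in NM1 WT. Unlike Ccl2, it was highest in NM1 KO 3 and NM1 WT 3, which had 0 Y-linked counts.

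The small secreted WAP-domain proteins lie just beyond the chemokines. Wfdc17 had 25.5 ± 3.68 and 37.0 ± 12.6 CPM (log2 fold change -0.54, adjusted p = 0.276), and Wfdc21 248 ± 24.3 and 312 ± 61.8 CPM (log2 fold change -0.33, adjusted p = 0.314), both with overlap. Per kilobase of exon, Wfdc21 was among the most abundant members at 571 CPM in NM1 KO against 719 CPM in NM1 WT, next to the actin-binding protein profilin, Pfn1, at 765 and 879 CPM. Beside these myeloid genes, the neutrophil markers were lower in NM1 KO by a median log2 fold change of -0.43, with 0 of 8 past the threshold, and the part of cell numbers in the values of Slfn4, Ccl6, Ccl9 and the Wfdc genes was not tested.

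**Figure D5:**
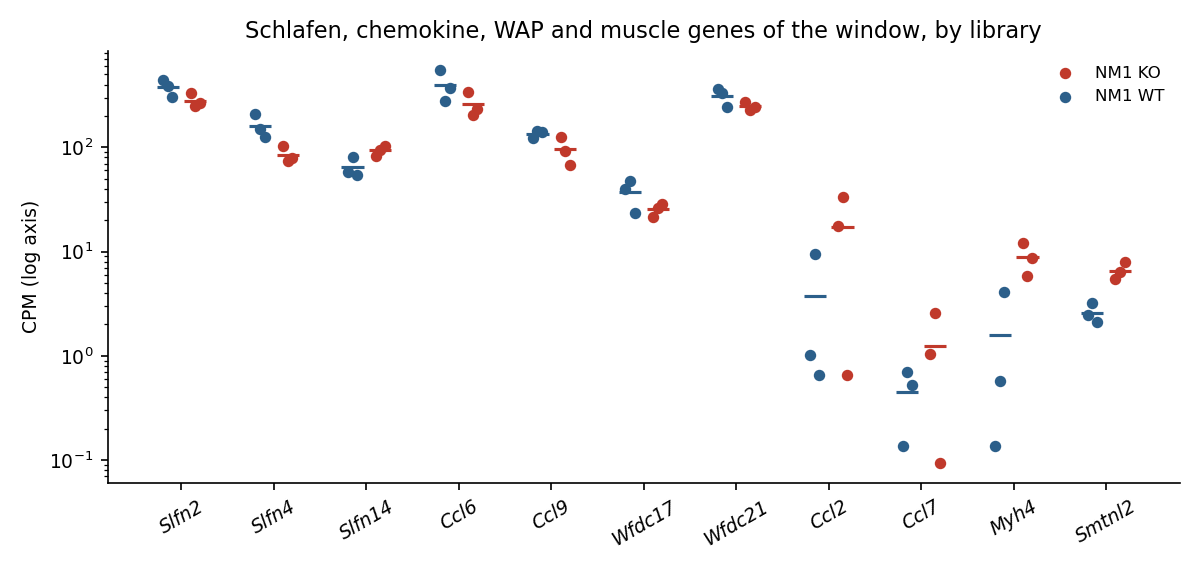
CPM on a log axis by library for members of the Schlafen, chemokine, WAP-domain and muscle groups, with 1 point per library and a bar at the mean of 3. Slfn4 was lower and Slfn14, Myh4 and Smtnl2 were higher in all NM1 KO libraries than in any NM1 WT library, and Ccl2 and Ccl7 were spread widely within each genotype.

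Among 5 skeletal muscle members, 2 had an unadjusted p under 0.05, both higher in NM1 KO (all tested genes: 8.44% higher). Myh4, the myosin heavy chain of the fastest muscle fibres, had 12.1, 5.85 and 8.72 CPM in NM1 KO and 0.136, 0.58 and 4.07 CPM in NM1 WT (log2 fold change 2.48, SE 0.77, adjusted p = 0.146). The genotypes were apart, though NM1 WT 3 came near the lowest NM1 KO library, and the gene passed without NM1 WT 3. Smtnl2, a smoothelin-like protein, had 5.48, 6.31 and 7.97 CPM in NM1 KO and 2.44, 3.25 and 2.10 CPM in NM1 WT (log2 fold change 1.34, SE 0.34, adjusted p = 0.0964). The summed muscle markers were higher in every NM1 KO library than in every NM1 WT library, as given above, and 5 of their 7 tested genes passed. The part of carried-over muscle in Myh4 and Smtnl2 was not tested. Unc45b, Chrnb1 and Slc2a4 had log2 fold changes of 0.65, 0.68 and -0.10, with overlap in each.

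The 11 members of platelet and calcium signalling had a median log2 fold change of 0.02, and 0 had an unadjusted p under 0.05, while 7 of 8 platelet markers elsewhere in the genome passed as higher. The platelet genes of the region that did pass as higher, Gp1ba, Alox12 and Slc6a4 (log2 fold changes of 1.32, 1.16 and 1.03), are among the genes left out by name, so the 11 are what remained without them. P2rx1, an ATP-gated channel of platelets, had 33.6, 57.9 and 28.7 CPM in NM1 KO and 27.7, 27.9 and 31.3 CPM in NM1 WT (log2 fold change 0.47, adjusted p = 0.334), with NM1 KO 2 the high library. That library also had the highest sum of platelet markers. Serpinf2, the inhibitor of plasmin, had 4.18, 5.71 and 0.938 CPM in NM1 KO and 1.90, 1.16 and 1.44 CPM in NM1 WT (log2 fold change 1.27, adjusted p = 0.315). Atp2a3, a calcium pump of blood cells, had 477 ± 5.58 and 444 ± 8.72 CPM, apart but with a log2 fold change of 0.10.

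Of 11 immune enzymes and adaptors, 2 were higher and 2 lower at an unadjusted p under 0.05 (all tested genes: 8.44% higher and 8.32% lower). Pik3r6, a regulatory subunit of PI3K gamma, had 44.99, 27.7 and 38.7 CPM in NM1 KO and 57.7, 50.6 and 60.7 CPM in NM1 WT (log2 fold change -0.60, adjusted p = 0.132). Arrb2, beta-arrestin 2, had 363 ± 55.5 and 478 ± 50.1 CPM (log2 fold change -0.40, adjusted p = 0.193). Nlk, a kinase of Wnt signalling, had 42.6 ± 11.1 and 28.2 ± 3.28 CPM (log2 fold change 0.59, adjusted p = 0.153), and Traf4, a signalling adaptor, 36.9 ± 5.28 and 27.2 ± 4.07 CPM (log2 fold change 0.44, adjusted p = 0.219). In all 4 the genotypes were apart. Of 9 tested lectins and myeloid surface proteins 0 had an unadjusted p under 0.05. Cxcl16, a membrane-bound chemokine, had 8.13 ± 2.96 and 5.13 ± 1.19 CPM and Scimp, an adaptor of antigen-presenting cells, 4.22 ± 0.189 and 2.59 ± 0.926 CPM, with adjusted p of 0.342 and 0.397.

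Of 16 transcription and chromatin genes, Suz12 and Hic1 were higher and Pelp1 and Kdm6b lower at an unadjusted p under 0.05 (all tested genes: 8.44% higher and 8.32% lower). Suz12, a core subunit of the Polycomb complex that methylates histone H3, had 140.3, 179 and 157 CPM in NM1 KO and 103, 127 and 109 CPM in NM1 WT (log2 fold change 0.49, SE 0.14, adjusted p = 0.119). Kdm6b, which removes that mark, had 63.2 ± 8.16 and 84.7 ± 12.0 CPM (log2 fold change -0.42, adjusted p = 0.183). Polr2a, the largest subunit of RNA polymerase II, had 151 ± 20.7 and 182 ± 13.8 CPM (adjusted p = 0.337).

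Of 17 RNA processing and translation genes, Mettl16 and the helicase Dhx33 (20.8 ± 2.04 and 15.0 ± 1.75 CPM, adjusted p = 0.212) were the 2 with an unadjusted p under 0.05. Both were higher (all tested genes: 8.44% higher). The most abundant of them, Eif5a, an elongation factor, and the ribosomal protein gene Rpl26, had log2 fold changes of 0.11 and 0.10. The 11 genes of DNA repair, telomeres and mitosis were the most even group, with log2 fold changes from -0.29 to 0.17 and 0 at an unadjusted p under 0.05. Ctc1, a telomere maintenance protein, had 41.3 ± 9.84 and 50.5 ± 9.24 CPM and Cntrob, a centriole protein, 32.2 ± 5.57 and 37.7 ± 5.23 CPM.

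Of 17 mitochondrial and metabolic genes 3 were lower and 0 higher at an unadjusted p under 0.05 (all tested genes: 8.32% lower and 8.44% higher). They were Glod4, Sco1, a copper carrier for cytochrome oxidase (8.73 ± 0.498 and 12.7 ± 0.916 CPM, adjusted p = 0.223), and Slc25a11, a carrier of the inner membrane (79.3 ± 12.5 and 99.5 ± 2.23 CPM, adjusted p = 0.26). Among 16 genes of the proteasome, ubiquitin and membrane traffic, Usp32 was higher and Vamp2, Vps53 and Psmb6 were lower at that p (all tested genes: the same shares). Usp32, a deubiquitinating enzyme 9.31 Mb from Myo1c, had 135, 167 and 159 CPM in NM1 KO and 101, 125 and 93.7 CPM in NM1 WT (log2 fold change 0.53, SE 0.14, adjusted p = 0.111). It was apart and passed in 5 of the 19 other settings.

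The 28 members that are not protein-coding held 6 genes at an unadjusted p under 0.05, Gm26836 among them. The 265 protein-coding members held 41, and the share among all tested genes was 16.8%. Most of the 28 were scarce. Tnfsf13os, an RNA antisense to the cytokine gene Tnfsf13, had 0.783, 0.46 and 0.844 CPM in NM1 KO and 2.44, 1.51 and 3.28 CPM in NM1 WT (log2 fold change -1.78, adjusted p = 0.151). Tnfsf13 itself had 1.21 ± 0.16 and 1.62 ± 0.248 CPM, and since their exons overlap the reads of the pair cannot be told apart without a strand setting. Rpl23a-ps2, a ribosomal protein pseudogene, had 0.348, 0.0921 and 0.375 CPM in NM1 KO and 1.09, 0.927 and 1.31 CPM in NM1 WT (log2 fold change -1.999, adjusted p = 0.203). Its parent-like gene Rpl23a, also in the region, had 29.5 ± 2.52 and 29.8 ± 1.50 CPM, and reads shared with other copies make the pseudogene uncertain. The remaining 4 were Gm26836, 4931413K12Rik and Gm12346, described above, and Gm11427 (32.1 and 22.9 CPM on average). Mir144, a microRNA locus of red cell precursors, had 22, 4 and 14 raw counts in NM1 KO and 8, 6 and 10 in NM1 WT. Exons of 88 members overlap exons of another gene, and 106 members overlap a gene on the opposite strand.

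The 16 genes left out by name were chosen with their differences known, and they hold more calls than the members. Of these, 6 passed: Slc6a4, Nlrp1b, Gp1ba and Alox12 were higher, and Alox15 and Alox12e were lower. They lie 1325 to 5395 kb from Myo1c. With them added, 8 of 308 genes passed (2.6%, against 0.776% of all tested genes), 4 higher and 4 lower (1.3% each, against 0.591% and 0.186%). In the main edgeR fit, no gene but Gm26836 passed within 1 Mb of Myo1c in either set. There, 7 members passed with DESeq2 (794 genes called in all) and 6 with edgeR without a low-count filter (1138 genes).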

How the data were processed

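RNA of whole bone marrow was sequenced from 6 mice, 3 NM1 KO and 3 NM1 WT, 1 library per mouse. The authors deposited raw counts for each Ensembl gene, not normalised. HISAT2 2.0.4, HTSeq, Trimmomatic 0.36, SAMtools 0.1.19 and FastQC are listed in the submitters' processing notes, with GRCm38 and mm10. Neither strand setting nor annotation release nor counting options are named there or in the labels. Low counts were nearly all even, so both mates of a pair appear to have been counted, which doubles counts without adding information. Positions come from GENCODE M21, which matched 46005 of 46603 genes, and distance is the gap between a gene body and the Myo1c body. The members, gene groups and named genes were chosen with earlier results of these data known.

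Counts were tested with edgeR 4.0.16 (R 4.3.3), quasi-likelihood, TMM scaling, filterByExpr and genotype as the only term, with Benjamini-Hochberg adjustment over 15069 genes and a threshold of 0.05. CPM use the TMM factors, and SE is the log2 fold change divided by the root of F. Named by rule were Ccdc92b, Gm26836, the 8 tested members nearest on each side, the 5 largest log2 fold changes in each direction with a mean of at least 1 CPM in either genotype, and the 2 members of smallest p in each of the 13 groups. The result of 1 of these groups is not reported here. Other genes were named after their values were seen. Alternatives were other scalings, filters and thresholds, limma 3.58.1, DESeq2 1.42.0, a replicate block, the Y-linked state, halved counts and each library left out. The steps were tested on simulated counts. Same-numbered libraries correlated at 0.0636, 0.115 and 0.0609 in their deviations from the group means, and libraries of unlike number at -0.0784 to 0.0172. The same-number values were higher but not all over 0.1, and the labels name no shared batch, so the numbers were not taken as pairs.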

Additional observations from a re-analysis of the deposited data

How the results depend on the processing

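Ccdc92b passed in all 19 refits, and 43 of the 46 named members kept their direction in each refit that tested them, which was 19 for 42 of the 46 and 17 or 18 for the other 4. The exceptions, as log2 fold changes, were Inpp5k, at 0.0214 with the Y-linked state as a term and from -0.25 (without NM1 WT 2) to 0.0441 (without NM1 KO 2) with a library left out, Prpf8, from -0.37 (without NM1 KO 3) to 0.0067 (without NM1 KO 2), and Gm12338, from -0.71 (without NM1 WT 2) to 0.31 (without NM1 WT 1). The counts of members past the threshold moved with the test, and the cause was not tested. Higher members numbered 0, lower members 2 and those within 1 Mb 1 as reported (117 of 15069 genes called in all). These 3 counts were 10, 13 and 6 without a low-count filter (1138 of 24358 genes called in all), 7, 11 and 7 with DESeq2 (794 genes), 6, 6 and 2 with limma-voom with quality weights (482 genes), 2, 7 and 2 with a replicate block (421 genes), 1, 5 and 1 with the likelihood ratio test (541 genes) and 0, 1 and 0 with limma-voom (37 genes). With halved counts, or without haemoglobin, immunoglobulin and mitochondrial genes, lower members numbered 4 (152 and 207 genes called in all). At an adjusted p under 0.1 there were 1 higher and 5 lower, and among members of 600 or more counts 1 lower and 0 within 1 Mb. The calls over all genes at 0.1 are not given. Other member sets were chosen after seeing the data: adding the 16 genes left out by name gave 4 higher and 4 lower, and taking out Ccdc92b and Gm26836 left 0 lower and 0 within 1 Mb. Leaving out each library gave 0 to 2 higher, 1 to 6 lower and 0 to 1 within 1 Mb, while the genes called in all ran from 26 (0.167%) to 344 (2.18%). It also gave 6 to 8 higher-side members within 1 Mb at an unadjusted p under 0.05, a count added after its values were seen. The 2 higher and 6 lower came without NM1 WT 2, the refit that called 344 genes in all, and the 8 without NM1 KO 3. The replicate block is a fit on numbers that are not shown to pair the mice, though each library correlated best with its own number. Members under 1 CPM rest on fewer than 23 counts per library.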
